A study of Homo sapiens with 4 samples.

Results

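The genes described here encode the chains of integrins, laminins and collagens. They were chosen by symbol from the 20176 protein-coding genes of the GENCODE annotation on GRCh37, and 80 of them are described as members: 25 integrin genes (ITGA or ITGB followed by digits or by a single letter), 11 laminin genes (LAMA, LAMB or LAMC and a number) and 44 collagen genes (COL, a number, A and a number). ITGA2B, whose symbol has a letter after the digits, falls outside that rule and was counted only as an alternative. H3K4me3, a histone mark of active transcription start sites (TSS), was profiled by native ChIP-Seq in MDA-MB-231, a long-established line of human breast cancer cells of the triple negative type. Cells were untreated or treated for 3 days with Tat-SID at 1 μM or at 2.5 μM, and each condition, like the input DNA, was sequenced as 1 library. Tat-SID is a decoy peptide that carries the SIN3 interaction domain of MAD behind the Tat nuclear localization signal and occupies the PAH2 domain of the scaffold protein SIN3. The comparison was with untreated cells and not with cells given a scrambled peptide, so an effect of adding any peptide and an effect of the SIN3 interaction domain cannot be told apart. Both treated libraries were compared by the authors with the same untreated library.

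The files list 141 regions with reduced H3K4me3 at 1 μM, 2063 at 2.5 μM and 3 with increased H3K4me3 at 2.5 μM, as bare positions with no value attached to a region. The size of a reduction, the depth behind it and the spread between replicates are therefore unknown, and conditions could not be tested against each other. The lists also do not show which genes carried H3K4me3 before treatment, so a gene that is absent from them may have had no mark to lose, and the identity of the cells could not be checked against marker genes. In what follows, a gene is called when its gene start, or the TSS of any of its transcripts, lay at most 3 kb from a region of the list. The confidence intervals are exact Clopper-Pearson 95% intervals over genes and cover counting error only.

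Integrins are receptors made of an alpha and a beta chain that tie the extracellular matrix to the actin cytoskeleton. Laminins are trimers of an alpha, a beta and a gamma chain and form, with the network of collagen IV, the basement membrane on which epithelial cells rest. The fibrillar collagens build the stroma around it. In breast epithelium, binding of alpha3 and alpha6 integrins to laminin anchors basal cells, and invasive cells use integrins that contain beta1 to move along laminin and collagen.

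At 2.5 μM Tat-SID, 12 of the 80 members had a reduced region at a TSS (15.0%, confidence interval 8.0% to 24.7%), against 10.8% of all protein-coding genes. The 12 were 6 integrin genes (ITGA1, ITGA2, ITGA3, ITGA6, ITGAV and ITGB1), 2 laminin genes (LAMB3 and LAMC1) and 4 collagen genes (COL4A5, COL4A6, COL8A1 and COL13A1). The integrin share was 24.0% (9.36% to 45.1%), the laminin share 18.2% (2.28% to 51.8%) and the collagen share 9.09% (2.53% to 21.7%). The share of all protein-coding genes lay inside each of these intervals. Members had a median of 8 annotated TSS and all protein-coding genes 5. With gene starts only, the shares at 2.5 μM were 13.8% of members and 9.50% of all protein-coding genes. With the TSS of the canonical transcript alone they were 15.0% and 9.91%. Whether the number of TSS bears on the shares was not tested. At 1 μM, ITGA2 and ITGB1 were called (2.50% of members, 0.304% to 8.74%), against 0.674% of all protein-coding genes. Both are integrin genes, so the integrin share at 1 μM was 2 of 25 (8.0%, 0.984% to 26.0%). This interval lay above 0.674% but rests on 2 genes, and the members were chosen with earlier results of these data known. It is therefore a description and not a test. With gene starts only, ITGA2 was the 1 member still called at this dose, beside 0.496% of all protein-coding genes, so the interval does not carry over to that setting. None of the 80 members lay near a region with increased H3K4me3, and 0% of all protein-coding genes did.

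**Figure D1:**
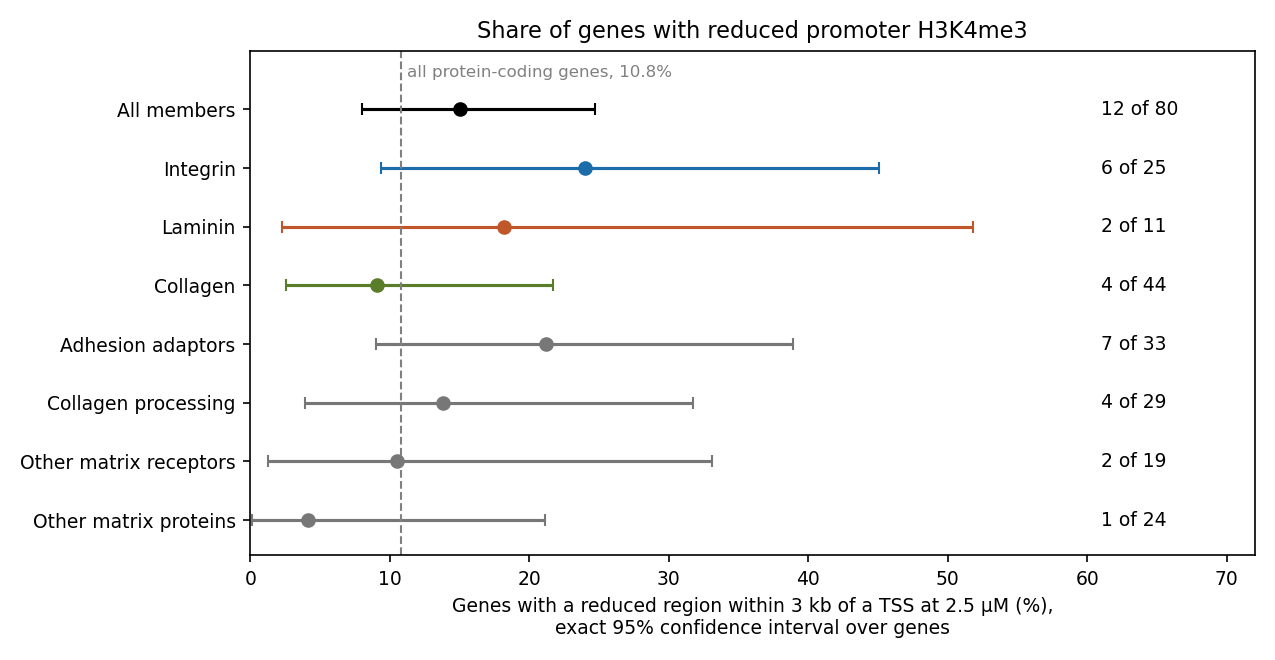
Share of genes with a region of reduced H3K4me3 within 3 kb of a TSS at 2.5 μM Tat-SID (horizontal axis, percent) for the members, the 3 families and 4 lists of related genes. Points are shares, bars are exact 95% confidence intervals over genes, and the dashed line is the 10.8% of all protein-coding genes, which crosses the bar of every group.

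The members fell on either side of the 3 kb limit without borderline cases. In each of the 12 called genes the region covered an annotated TSS, at a distance of 0 bp. This was not particular to the members. Of all protein-coding genes, 2178 were called at 2.5 μM, and in 2142 a region covered an annotated TSS. A window of 10 kb raised the 2178 only to 2338. The nearest member outside the limit was ITGB4, whose closest TSS was 19.5 kb from a reduced region, followed by ITGB3 at 31.3 kb and COL23A1 at 33.7 kb. Of the 68 members not called, 9 had their nearest region between 10 and 100 kb away, 40 between 100 and 1000 kb and 19 farther still, up to 8774 kb for COL6A2. The median distance of these members was 374 kb, and that of all protein-coding genes not called was 475 kb. The called members lay on 7 chromosomes. Chromosome 6, where 18.8% of all protein-coding genes were called, holds 8 members and none of them was called. Chromosome 5, with 18.0%, had 2 of 3 members called, and chromosome 10, with 13.2%, had 2 of 4. Such small counts do not set a chromosome apart.

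**Figure D2:**
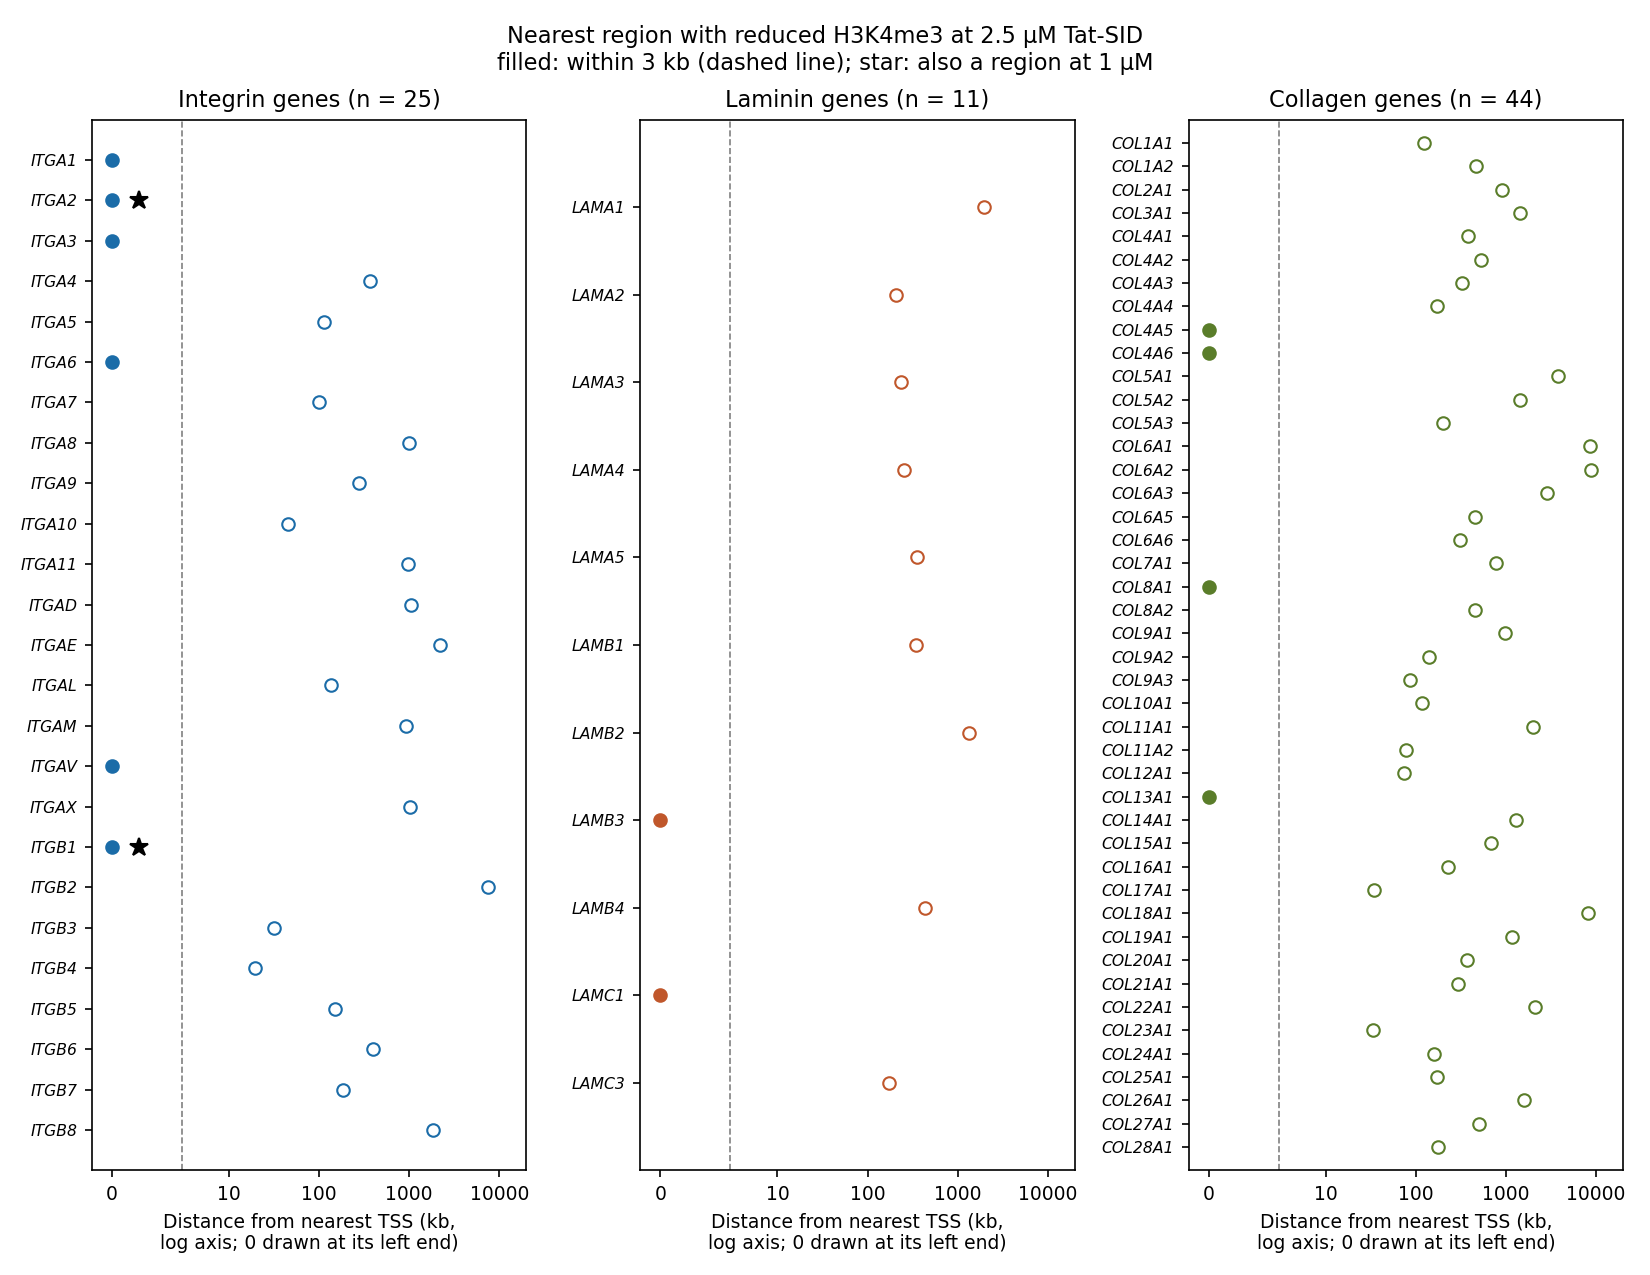
Distance from the nearest annotated TSS of each of the 80 members to the nearest region reduced at 2.5 μM Tat-SID (horizontal log axis, kb, with 0 drawn at its left end) for integrin, laminin and collagen genes. Filled circles are the 12 called genes, all at 0 kb, stars mark ITGA2 and ITGB1, which also had a region at 1 μM, and open circles start at 19.5 kb with ITGB4.

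ITGA2 and ITGB1 encode the chains of alpha2beta1, a receptor for collagen that also binds laminin, and were the members reduced at both doses. ITGA2 (ENSG00000164171) lies on the plus strand of chromosome 5 with its canonical TSS at 52285182. Its region at 2.5 μM ran from 52282851 to 52293649, and that at 1 μM began at the same base and ended 50 bp farther on, at 52293699. The region held exon 1 of 30 and reached 8467 bp downstream of the TSS at 2.5 μM. The TSS of the antisense RNA gene ITGA2-AS1 lay inside it, 812 bp from that of ITGA2.

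ITGB1 (ENSG00000150093), which encodes the beta chain shared by the largest group of integrins, lies on the minus strand of chromosome 10. The annotated gene start, at 33294720, belongs to a far upstream transcript and was 45.2 kb from the region of reduced H3K4me3 at 2.5 μM. The TSS of the canonical transcript is at 33247158, 47562 bp downstream of that gene start, and the region covered it with 2391 bp upstream and 8307 bp downstream, exon 1 of 16 included. Of the 25 annotated TSS of ITGB1, 19 lay inside the region at 2.5 μM and 20 inside that at 1 μM. The reduction called at ITGB1 was thus located at the TSS of its canonical transcript. The 1 μM region shared its downstream edge with the 2.5 μM region and extended 3250 bp farther upstream, to 33252799. A TSS of the divergent transcript ITGB1-DT lay 207 bp away within both regions.

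The sequences around these TSS are shown because ITGA2 and ITGB1 were the only members listed at both doses. Each runs from 250 bases before the canonical TSS to 30 bases from it on, 5′ to 3′ on the strand of the gene in GRCh37, with matches to GGGCGG on either strand (read as CCGCCC on the other strand) in capitals. The ITGA2 sequence, chr5:52284932-52285211 on the plus strand, has a GC content of 73.9% and holds 26 CG dinucleotides. The ITGB1 sequence, chr10:33247129-33247408 on the minus strand, has a GC content of 78.6% and holds 36.
ITGA2: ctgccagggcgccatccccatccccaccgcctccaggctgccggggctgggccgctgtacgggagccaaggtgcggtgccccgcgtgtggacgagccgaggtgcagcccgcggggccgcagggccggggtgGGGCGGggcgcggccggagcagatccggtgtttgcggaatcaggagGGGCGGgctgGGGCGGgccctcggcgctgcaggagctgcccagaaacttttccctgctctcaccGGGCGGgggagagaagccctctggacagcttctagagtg
ITGB1: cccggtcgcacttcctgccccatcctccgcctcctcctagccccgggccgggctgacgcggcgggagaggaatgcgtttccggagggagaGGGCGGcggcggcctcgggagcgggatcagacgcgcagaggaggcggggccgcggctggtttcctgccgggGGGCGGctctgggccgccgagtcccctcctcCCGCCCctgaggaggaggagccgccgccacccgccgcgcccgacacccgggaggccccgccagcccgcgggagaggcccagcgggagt
GGGCGG, the core of the GC box, occurs 4 times in the ITGA2 sequence and 3 times in that of ITGB1. In the window from 250 bases before to 50 bases after the gene start, this string was present in 7 of the 12 called members, in 57.5% of all members and in 52.2% of all protein-coding genes. CCAAT was present there in 3 called members and in 35.8% of all protein-coding genes, and TATAAA in 2 and in 10.9%. Around the canonical TSS, which for ITGB1 is far from the gene start, GGGCGG was present in 8 called members and in 61.5% of all genes, CCAAT in 1, COL4A5, and in 36.0%, and TATAAA in 1, COL13A1, and in 9.63%. The strings were searched on both strands and do not overlap each other in the printed sequences. These are matches of letters and not evidence of binding.

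The other alpha chains called at 2.5 μM were the collagen receptor chain ITGA1, the laminin receptor chains ITGA3 and ITGA6, and ITGAV, which pairs with several beta chains to bind ligands with an RGD motif. ITGA3 (ENSG00000005884, chromosome 17, plus strand) had a region of 8949 bp from 48132001 to 48140949 that reached 7475 bp past the canonical TSS at 48133474 and also held a TSS of the RNA gene PICART1. ITGA6 (ENSG00000091409, chromosome 2), which encodes CD49f, had 463 bp before and 5335 bp after its canonical TSS. That upstream part was the shortest among the member regions that covered the canonical TSS. The ITGA6 region also held a TSS of the RNA gene ENSG00000226963 on the other strand, 1017 bp from that of ITGA6. ITGAV (ENSG00000138448, chromosome 2, plus strand) had a region of 4099 bp from 187453651 to 187457749, shorter than most regions of the list, in which 9 of its 18 TSS lay. Each of the 3 regions held exon 1 of its gene and ended in intron 1. At 1 μM their nearest regions were 9749 kb, 15054 kb and 872 kb away, respectively.

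ITGA1 (ENSG00000213949) neighbours ITGA2 on chromosome 5, with canonical TSS 201 kb apart. Its region at 2.5 μM, from 52082251 to 52086949, covered the canonical TSS at 52083750. The ribosome rescue factor gene PELO has a TSS at the same base, and the antisense RNA gene PELO-AS1 has one 110 bp away, so the reduction at this promoter cannot be assigned to ITGA1 alone. At 1 μM the nearest region was 55.9 kb from a TSS of ITGA1.

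Among the 12 alpha chains that pair with beta1, 5 were called, beside 10.8% of all protein-coding genes. This group was formed after the calls were seen, so its count is a description and is not a result to set against that share. ITGA4, ITGA5, ITGA7, ITGA8, ITGA9, ITGA10 and ITGA11 were not. Of these, ITGA10, a collagen receptor of cartilage, lay at 45.1 kb, the fibronectin receptor chain ITGA5 was 114 kb away and ITGA7 was 99.5 kb away. The 5 other alpha members, which leukocytes use, were not called (0% to 52.2%, an interval that holds the 10.8% of all protein-coding genes). ITGAL, ITGAM, ITGAX and ITGAD lie on chromosome 16, where 2.67% of all protein-coding genes were called, and their distances were 136, 924, 1019 and 1057 kb. ITGAE on chromosome 17 was 2200 kb away. Of the 8 beta chains ITGB1 was called, and the other 7 were between 19.5 kb (ITGB4) and 7565 kb (ITGB2) from a reduced region.

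Read as receptors, 5 of 23 known integrin pairs of members had both chains called, namely alpha1, alpha2, alpha3, alpha6 and alphaV with beta1. In 12 pairs a single chain was called, among them alpha6beta4, the hemidesmosome receptor for laminin, and in 6 neither was. All 5 pairs share ITGB1, so they are not independent of each other. ITGA2B, the platelet chain that was left out by the rule, was not called.

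**Figure D3:**
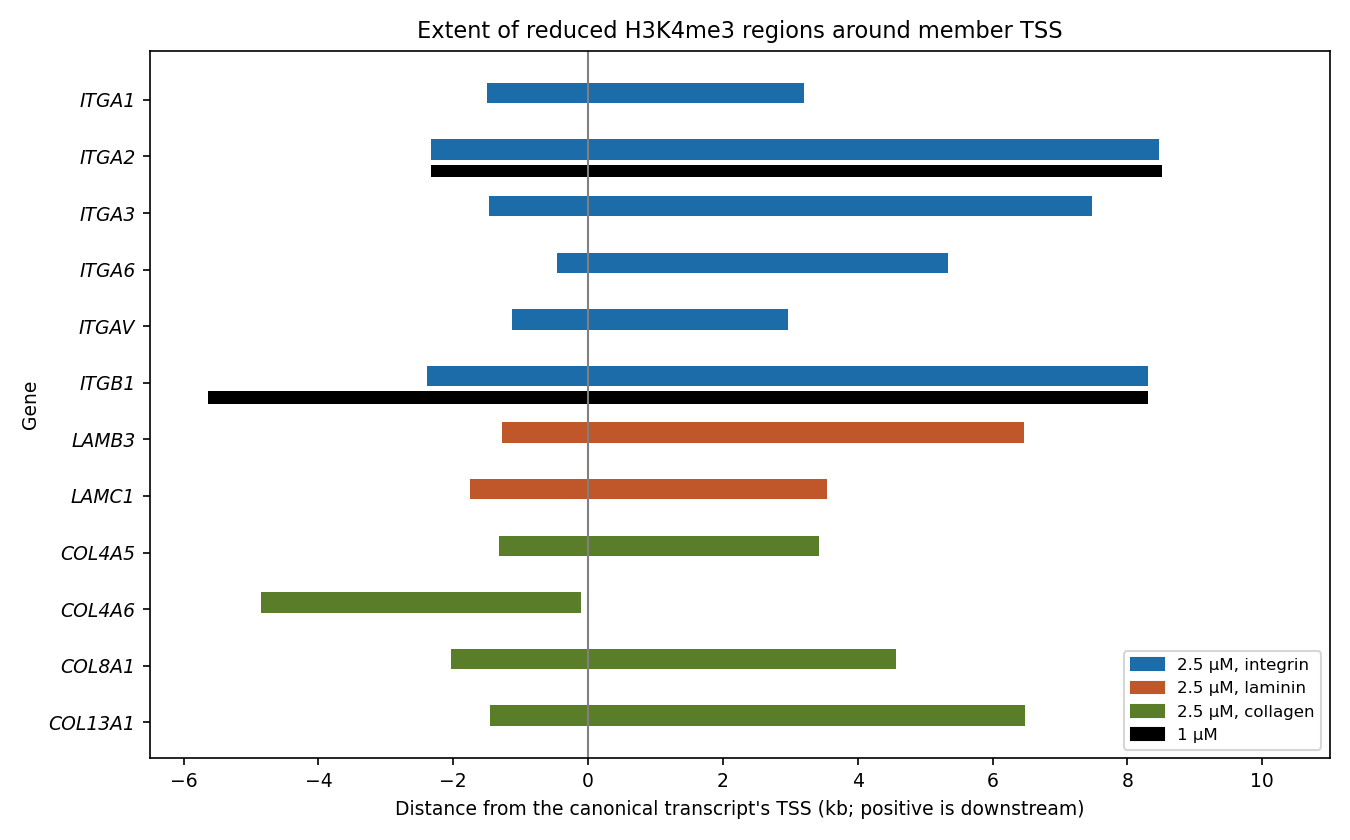
Extent of the regions of reduced H3K4me3 around the TSS of the canonical transcript of each of the 12 called members (horizontal axis, kb, positive values downstream in the direction of transcription). Coloured bars are regions at 2.5 μM and black bars those at 1 μM, each from 1 treated and 1 untreated library. Every bar but that of COL4A6, which stops 99 bp before its TSS, crosses 0 and is longer to the right than to the left.

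The laminin genes called at 2.5 μM were LAMB3, which encodes a beta chain of the laminin that anchors epithelial cells at hemidesmosomes, and LAMC1, which encodes the gamma chain found in most laminins. LAMB3 (ENSG00000196878, chromosome 1, minus strand) had a region of 7749 bp from 209819301 to 209827049 that held exons 1 to 3 of its 23 exons, the only member region with more than exon 1. LAMC1 (ENSG00000135862, chromosome 1, plus strand) had a region of 5299 bp from 182990801 to 182996099 around its TSS at 182992555. On chromosome 1, 12.3% of protein-coding genes were called.

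None of the 5 laminin alpha chains was called (0% to 52.2%, which holds the 10.8% of all protein-coding genes), with distances from 206 kb (LAMA2) to 1984 kb (LAMA1). LAMA3, the alpha chain found with LAMB3 at hemidesmosomes, was 234 kb from a reduced region. LAMB1, LAMB2, LAMB4 and LAMC3 were 345, 1334, 437 and 171 kb away. In 5 laminin trimers that contain LAMC1, no other chain was called. This follows from the calls of the single chains, and the trimers share LAMC1, so they are not independent of each other. No laminin gene was listed at 1 μM (0% to 28.5%, an interval that holds the 0.674% of all protein-coding genes at that dose). The closest was LAMB1, 1641 kb from a region.

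Of the 44 collagen genes, those called were a head-to-head pair of collagen IV genes, the short chain collagen COL8A1 and the transmembrane collagen COL13A1. COL4A5 (ENSG00000188153, plus strand) and COL4A6 (ENSG00000197565, minus strand) lie on chromosome X with gene starts 341 bp apart and together form a basement membrane trimer. A single region of 4749 bp, from 107681751 to 107686499, covered both gene starts. It ran 3431 bp into COL4A5, and on the other side it ended 99 bp short of the TSS of the canonical COL4A6 transcript at 107681652, although it held 2 of the 5 TSS of that gene. Called once as a region, this pair counts as 1 observation and not as 2. On chromosome X 5.75% of protein-coding genes were called.

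The 300 bases in the middle of the stretch between the 2 gene starts, chrX:107682748-107683047 on the plus strand of GRCh37, are shown because both genes begin from it. Matches to CCAAT on either strand (read as ATTGG on the other strand) are in capitals.
COL4A6-COL4A5: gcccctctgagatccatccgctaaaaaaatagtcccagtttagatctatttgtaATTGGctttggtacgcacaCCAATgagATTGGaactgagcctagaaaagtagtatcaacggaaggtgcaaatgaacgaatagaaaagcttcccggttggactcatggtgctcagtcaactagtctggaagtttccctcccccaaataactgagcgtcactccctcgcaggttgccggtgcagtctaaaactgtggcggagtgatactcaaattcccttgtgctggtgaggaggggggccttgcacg
It has a GC content of 49.0% with 10 CG dinucleotides, holds 3 matches to CCAAT and none to GGGCGG or TATAAA.

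COL8A1 (ENSG00000144810, chromosome 3, plus strand), which encodes a collagen of vessel walls, had a region of 6599 bp from 99355401 to 99361999 that held exon 1 of 4. COL13A1 (ENSG00000197467, chromosome 10, plus strand), a collagen of cell-matrix junctions, had a region of 7949 bp from 71560201 to 71568149 with exon 1 of 41, and 9 of its 34 TSS lay inside. None of the 11 genes for collagens that build fibrils was called (0% to 28.5%), and the 10.8% of all protein-coding genes lay inside that interval, so this count does not set them apart from other genes. COL1A1 and COL1A2, the chains of collagen I, were 124 kb and 470 kb from a reduced region, COL3A1 was 1419 kb away and COL5A1 3820 kb. The 10 FACIT collagens, which sit on the surface of fibrils (0% to 30.8%), and the 5 collagen VI genes (0% to 52.2%) were not called, with COL12A1 nearest at 74.1 kb. Both intervals hold the 10.8% of all protein-coding genes, so these counts do not set them apart either. The major basement membrane chains COL4A1 and COL4A2 share a divergent promoter like COL4A5 and COL4A6. Their canonical TSS were both 525 kb away, and their nearest annotated TSS 381 kb and 523 kb. In the divergent pair COL4A3 and COL4A4, both canonical TSS were 327 kb away, and the nearest annotated TSS 327 kb and 173 kb. No collagen gene was listed at 1 μM (0% to 8.04%, an interval that holds the 0.674% of all protein-coding genes at that dose).

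The 11 regions that held the 12 members at 2.5 μM had a median length of 6599 bp (4099 to 10799 bp), beside 4949 bp over all 2063 regions, and 8 of the 11 exceeded that value. The whole list includes regions away from protein-coding TSS. Regions that covered the canonical TSS of a protein-coding gene had a median of 5149 bp, with quartiles of 4199 and 6349 bp. The difference was not tested. ITGA2 at 10799 bp ranked 47th of 2063, ITGB1 at 10699 bp ranked 50th and ITGA3 ranked 125th. ITGAV, with the shortest member region, was longer than 26.8% of the list. In the 1 μM list, whose median was 8599 bp, ITGB1 at 13949 bp ranked 14th of 141 and ITGA2 at 10849 bp ranked 33rd. ITGB1 was therefore the longer of these regions at 1 μM and the slightly shorter at 2.5 μM. Length follows how windows passed the authors' thresholds and is not a measure of how much H3K4me3 was lost.

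**Figure D4:**
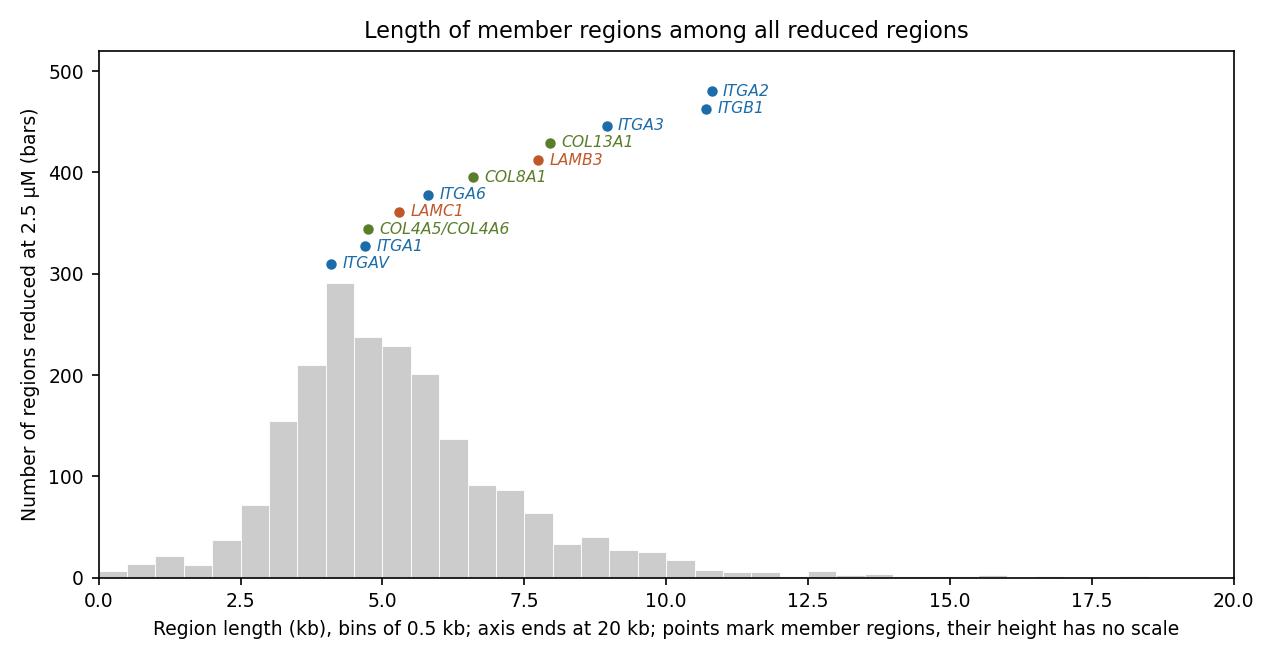
Lengths of all regions reduced at 2.5 μM Tat-SID (grey bars, number of regions per 0.5 kb) with the 11 member regions as coloured points at their length in kb on the horizontal axis. The points run from ITGAV at 4099 bp to ITGB1 and ITGA2 at 10699 and 10799 bp, in the right tail of the bars.

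The regions extended mainly into the genes. In all 11 members whose region covered the canonical TSS, the part downstream of it was longer than the part upstream, with a median of 5335 bp against 1473 bp. Among 1971 protein-coding genes whose region covered the canonical TSS, 74.7% had the longer part downstream, with medians of 3095 bp and 1849 bp. ITGA2, ITGB1, ITGA3, COL13A1 and LAMB3 had more than 6 kb downstream, and ITGAV about 3 kb. The difference from the other genes was not tested.

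A CpG promoter was defined by a GC content over 50% and a ratio of observed to expected CpG over 0.6 within 1 kb. Around the gene start, 14.8% of all protein-coding genes with a CpG promoter were called at 2.5 μM, and 7.28% of the rest. Among the members the shares were 6 of 32 (18.8%, 7.21% to 36.4%) and 6 of 48 (12.5%, 4.73% to 25.2%). Around the canonical TSS, which moves ITGB1 into the CpG class, they were 7 of 36 (19.4%, 8.19% to 36.0%) and 5 of 44 (11.4%, 3.79% to 24.6%), beside 15.0% and 6.64% of all protein-coding genes. The values that follow are around the canonical TSS. ITGA2, ITGA3, ITGA6, ITGAV and ITGB1 were 5 of 12 integrin genes with a CpG promoter (41.7%, 15.2% to 72.3%). Of the other 13 only ITGA1, with a ratio of 0.588 just under the limit, was called (7.69%, 0.195% to 36.0%). The 15.0% of all protein-coding genes with a CpG promoter lay just below the first interval, and the 6.64% of the rest lay inside the second. These 2 intervals overlap. The use of the canonical TSS, which places ITGB1 in the CpG class, was chosen after seeing the data. The integrin shares are therefore a description and not a test. Of the called collagens COL13A1 had a CpG promoter, and COL4A5, COL4A6 and COL8A1 had GC contents of 43.2%, 44.2% and 48.0%. The 17 other collagen genes with a CpG promoter, COL4A1 and COL4A2 included, were not called. LAMB3 had a CpG ratio of 0.165, the lowest of the 12, and LAMC1 had one of 0.817. ITGA2 and ITGB1, the members called at 1 μM, had ratios of 0.650 and 0.872, and at that dose 0.942% of all protein-coding genes with a CpG promoter and 0.414% of the rest were called.

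**Figure D5:**
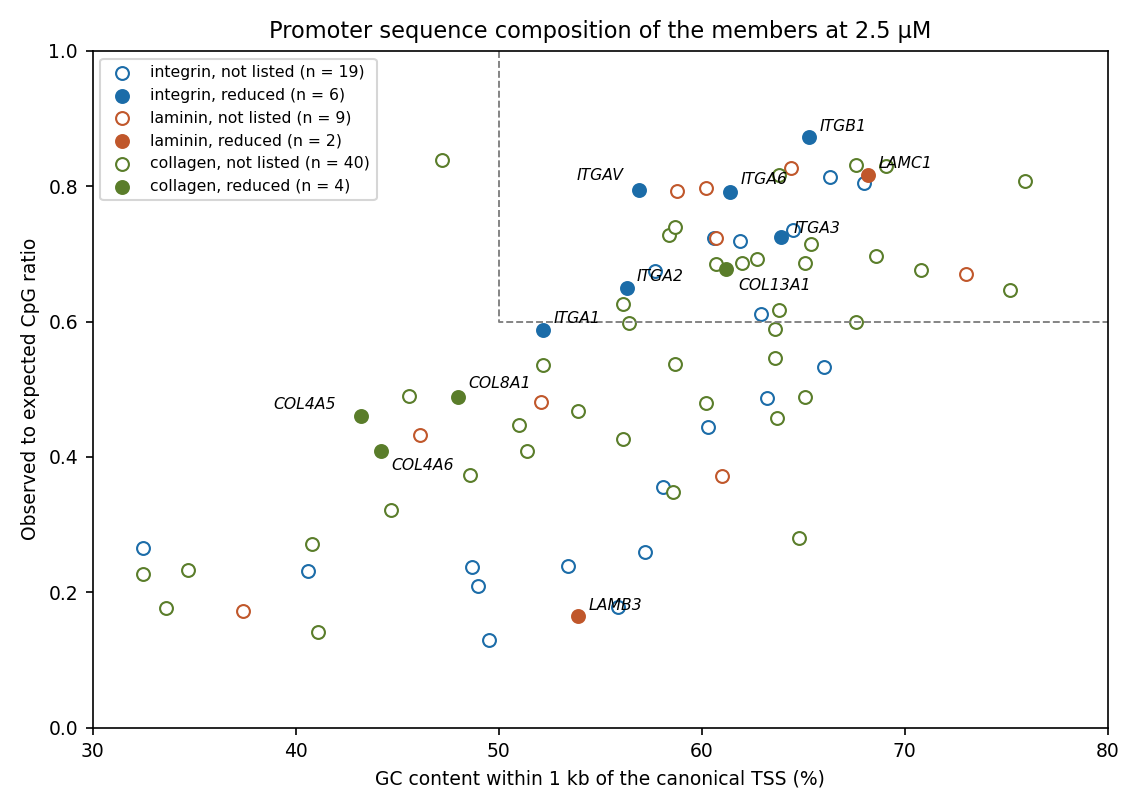
GC content (horizontal axis, percent) and ratio of observed to expected CpG (vertical axis) within 1 kb of the canonical TSS of the 80 members, with genes called at 2.5 μM filled and named. The dashed lines bound the CpG promoters, which hold 5 of the 6 called integrin genes, LAMC1 and COL13A1, while LAMB3, ITGA1, COL4A5, COL4A6 and COL8A1 lie outside.

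The machinery around these proteins was described with 4 lists of 105 genes in all, of which 14 were called at 2.5 μM (13.3%, 7.49% to 21.4%), beside the 10.8% of all protein-coding genes. Of 33 genes for adaptors and kinases that act inside the cell where integrins attach to actin, 7 were called (21.2%, 8.98% to 38.9%). The longest regions among them were at the actin crosslinker ACTN4 (7299 bp), the integrin activator talin TLN1 (7149 bp) and the integrin-linked kinase ILK (5949 bp), and the others were NEDD9, PXN, PTK2 and FERMT2. Of 29 genes for collagen modification and crosslinking, 4 were called (13.8%, 3.89% to 31.7%), namely the lysyl hydroxylase PLOD2, the prolyl hydroxylases P4HA1 and P3H1, and the lysyl oxidase LOX. PLOD2 had 7749 bp at 2.5 μM and was the only gene of the 4 lists also listed at 1 μM, with 8199 bp. That is 0.952% of the 105 genes (0.0241% to 5.19%), near the 0.674% of all protein-coding genes at that dose. Of 19 other matrix receptors, CD44, which binds hyaluronan, and the thrombospondin receptor CD47 were called (10.5%, 1.30% to 33.1%), and of 24 other matrix proteins fibronectin, FN1, was called with 4999 bp (4.17%, 0.105% to 21.1%). Each interval contained the share of all protein-coding genes.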

How the data were processed

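Native ChIP-Seq of H3K4me3 was available for MDA-MB-231 cells without peptide and at both concentrations of Tat-SID, with a single library each and a library of input. The authors checked the reads with FastQC 0.10.0, aligned them to hg19 (GRCh37) with Bowtie 1.0.0 and called changed regions with SICER. The submitters' processing notes also name MACS2 2.1.0. The lists deposited by the authors give positions only, with the direction of change in their names, and the study's text gives more than 1 FDR threshold for this comparison. Depth per library was not used here, and the handling of duplicate reads is not given in the sources used here. Chromosome names and lengths fitted GRCh37, and 0 regions ended beyond their chromosome.

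Positions were read as BED intervals and printed from 1. Genes, transcripts and canonical transcripts came from GENCODE release 44 lifted to GRCh37, and the printed sequences were read from the GRCh37 genome. Genes were called with a window of 3 kb around the gene start and every transcript TSS. The same counts were obtained with bedtools 2.31.1, and the search was tested on simulated data. GC content and CpG ratio were taken 1 kb on each side of a TSS. The members and gene lists were chosen with earlier results of these data known. The genes named were all called members, the 3 nearest members not called, chains that complete a pair or trimer or that define a group of chains, ITGA2B, and the 3 called genes with the longest regions of each list, with the remaining called genes of the lists named after their values were seen. Alternatives were the TSS window, the TSS counted, a minimum region length, merging of regions and shared regions. The use of the canonical TSS for region position, CpG classes, motifs and as an alternative, and the grouping into pairs and trimers, were added after seeing the data. A list of regions increased at 1 μM was not analysed here, and 1 gene that meets the symbol rule is not reported here. Python 3.11.15, numpy 2.4.6, scipy 1.17.1, pysam 0.24.0 and matplotlib 3.10.9 were used.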

Additional observations from a re-analysis of the deposited data

How the results depend on the processing

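The number of members called at 2.5 μM was 12 with a TSS window of 1 kb or 10 kb, with the TSS base itself covered, with the TSS of protein-coding transcripts only, with regions of at least 1000 bp, with regions within 3000 bp merged, with ITGA2B added and with the canonical TSS alone. It was 11 with gene starts only, which loses ITGB1, and 11 with the shared region of COL4A5 and COL4A6 counted once. It was 10 when no other protein-coding gene could have a TSS nearer to the region's centre, which loses ITGA1 to PELO and COL4A6 to COL4A5. At 1 μM, gene starts only left 1 member, ITGA2, of 2, because the start of ITGB1 lies far upstream. The counts of all protein-coding genes lay between 1917 (9.50%, gene starts only) and 2338 (11.6%, window of 10 kb) for 2.5 μM. For 1 μM they lay between 100 (0.496%) and 142 (0.704%) under the same settings. The member shares at 2.5 μM lay between 12.5% and 15.0%. All protein-coding genes were not counted with shared regions taken once or with the limit to the gene nearest the region's centre. The member counts under those settings therefore have no share to be set against. A stricter FDR could not be tried without values for the regions, and leaving out a replicate was not possible with a single library in each condition. No paired analysis was possible because no group had replicates. The canonical TSS was chosen as an alternative after seeing the data. A gene missing from the lists may have carried no H3K4me3, may have changed below the authors' threshold or may not have changed, and these cannot be told apart.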

Other observations

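A further region reduced at 2.5 μM Tat-SID lay inside ITGA1 and away from its TSS, on chromosome 5 of GRCh37 from 52093851 to 52100199. It was 6349 bp long, lay 10.1 kb from the nearest TSS of ITGA1 and held the gene start of PELO-AS1 at 52095821. ITGA1 was the only member of 80 with such a region inside the gene (1.25%), beside 0.699% of all protein-coding genes.

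A gene start far from the canonical TSS, as at ITGB1, was also found at NEDD9, an adaptor of focal adhesions, whose gene start was 148232 bp from the region that covered its canonical TSS. Over all protein-coding genes, 261 of the 2178 called at 2.5 μM were called through a TSS other than the gene start.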
